A study of Homo sapiens with 25 samples.

Results

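The clustered protocadherins are 53 protein-coding genes whose symbols start with PCDHA, PCDHB or PCDHG, in a row on human chromosome 5q31. They were chosen by symbol from the 19974 protein-coding genes of chromosomes 1 to 22 and X in the RefSeq table of GRCh38.p14. The alpha subcluster held 15 of them (chr5:140786140-141012347), the beta subcluster 16 (chr5:141051374-141249365) and the gamma subcluster 22 (chr5:141330514-141512975). The cluster spans 727 kb, and with 50 kb on each side the window described here was 827 kb long.

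The study profiled chromatin by immunoprecipitation and sequencing (ChIP-seq) in 4 untreated, established human lung adenocarcinoma cell lines. They were NCI-H2087 and NCI-H358, then NCI-H441 and HCC364, and counts given for all lines follow this line order. NKX2-1 (a lung lineage transcription factor), H3K27ac (a histone mark of active promoters and enhancers) and H3K4me1 (a mark found mostly at enhancers) were measured in all 4 lines. In NCI-H2087 there were also libraries for CTCF, H3K4me3 (a promoter mark), RNA polymerase II (labelled RNAPolII), the acetyltransferase EP300, SOX2, c-Jun (part of the AP-1 dimer) and 2 forkhead factors, FOXA1 and FOXA2. Each of the 20 combinations of line and antibody was 1 library with its own list of called peaks, so differences have no replicate check and no test is given. The 5 input libraries of the series were not analysed here. A cell line stands for 1 tumour, and none of the members' RNA or protein was measured in these files.

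The value given for a peak is its fold, the fragment pileup at the summit over the local background, as the authors' peak caller wrote it. A gene counts as carrying a peak when a peak overlaps the 1 kb on either side of its annotated start by at least 1 bp. Where no peak was called, the protein or mark may still be there below the caller's threshold. Alpha and gamma gene records share their 3′ ends, so only starts were used to tell members apart. The share of all 19974 genes that pass the same rule is given as the background of each count.

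Clustered protocadherins are cell adhesion proteins of the nerve cell surface, and each neuron uses a different handful of them. In the alpha and gamma subclusters every member has its own promoter and variable first exon, which is spliced to constant exons shared by the subcluster. Beta members are single-exon genes. Promoter choice depends on the zinc finger protein CTCF and on cohesin, which join a promoter to distant enhancers. CTCF is known to bind near a conserved promoter element with the core CGCT, and in the alpha subcluster also inside the variable exon. PCDHAC1, PCDHAC2, PCDHGC3, PCDHGC4 and PCDHGC5 are the C-type members, which are regulated apart from the others. The promoters of PCDHAC2, PCDHB1, PCDHGC4 and PCDHGC5 are known to lack the element. In several tumour types, promoters of the cluster are methylated and silent.

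The promoter sequences show what the members share around the start, where the beta and gamma CTCF summits and 3 of 13 alpha summits lay. RefSeq windows of 300 bases (250 before to 50 after the start, GRCh38.p14, plus strand) were at hand for 47 of the 53 members, and PCDHA3, PCDHA13, PCDHB6, PCDHB11, PCDHGA12 and PCDHGC5 had no entry. The stretches below are centred on the CGCT nearest to the CTCF summit or, without a summit in the window, nearest to 60 bases before the start. Capitals mark this core with the 5 bases before it. The first group is alpha, with CTCF summits at the element in PCDHA1, PCDHA7 and PCDHA10 and at +589 and +629 bp from the start in PCDHA8 and PCDHA12.
PCDHA1, chr5:140786077-140786130: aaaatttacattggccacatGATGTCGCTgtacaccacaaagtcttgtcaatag
PCDHA7, chr5:140834163-140834216: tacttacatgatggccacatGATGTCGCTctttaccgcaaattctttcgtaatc
PCDHA10, chr5:140855832-140855885: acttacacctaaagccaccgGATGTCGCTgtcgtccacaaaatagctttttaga
PCDHA8, chr5:140841121-140841174: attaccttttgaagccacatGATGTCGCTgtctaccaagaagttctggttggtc
PCDHA12, chr5:140875235-140875288: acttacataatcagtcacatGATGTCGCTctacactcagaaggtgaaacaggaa

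The beta group below holds the 5 members with the highest CTCF fold, then PCDHB15, which carried the same letters without a CTCF peak, and PCDHB1, which had neither.
PCDHB5, chr5:141135170-141135223: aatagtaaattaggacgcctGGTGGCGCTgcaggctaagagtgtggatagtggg
PCDHB10, chr5:141192290-141192343: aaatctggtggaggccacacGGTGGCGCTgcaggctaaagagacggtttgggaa
PCDHB12, chr5:141208634-141208687: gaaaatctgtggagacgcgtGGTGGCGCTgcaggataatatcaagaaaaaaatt
PCDHB3, chr5:141100384-141100437: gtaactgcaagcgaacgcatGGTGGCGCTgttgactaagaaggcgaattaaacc
PCDHB16, chr5:141182301-141182354: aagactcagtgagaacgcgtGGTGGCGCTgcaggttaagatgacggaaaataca
PCDHB15, chr5:141245305-141245358: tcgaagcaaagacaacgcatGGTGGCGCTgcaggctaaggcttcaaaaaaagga
PCDHB1, chr5:141051265-141051318: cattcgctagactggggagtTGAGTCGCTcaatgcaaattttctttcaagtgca

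The gamma group holds the 5 members with the highest CTCF fold, then PCDHGA5 and PCDHGA7, which had no CTCF peak.
PCDHGB5, chr5:141397854-141397907: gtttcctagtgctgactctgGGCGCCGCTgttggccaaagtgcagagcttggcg
PCDHGB1, chr5:141349959-141350012: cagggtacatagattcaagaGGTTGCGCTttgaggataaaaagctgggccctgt
PCDHGA2, chr5:141338694-141338747: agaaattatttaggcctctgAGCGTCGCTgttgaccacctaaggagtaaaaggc
PCDHGB4, chr5:141387608-141387661: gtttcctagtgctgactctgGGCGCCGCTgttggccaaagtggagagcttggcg
PCDHGB2, chr5:141359912-141359965: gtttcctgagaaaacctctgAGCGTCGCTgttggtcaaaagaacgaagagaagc
PCDHGA5, chr5:141364098-141364151: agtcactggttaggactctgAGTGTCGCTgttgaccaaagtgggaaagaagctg
PCDHGA7, chr5:141382640-141382693: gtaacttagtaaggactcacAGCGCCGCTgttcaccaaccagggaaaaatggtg

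The C-type members PCDHAC1, PCDHAC2 and PCDHGC4 had other words of 9 capitals than the members above. Their last letters were partly the same: PCDHAC1 shared the ending GTCGCT with other alpha members, and PCDHGC4 the ending GCCGCT with other gamma members.
PCDHAC1, chr5:140926211-140926264: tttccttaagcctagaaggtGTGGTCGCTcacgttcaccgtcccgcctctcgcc
PCDHAC2, chr5:140966410-140966463: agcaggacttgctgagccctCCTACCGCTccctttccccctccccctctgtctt
PCDHGC4, chr5:141484943-141484996: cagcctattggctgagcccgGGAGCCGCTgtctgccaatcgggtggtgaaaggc

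PCDHGC3 and PCDHGB5 were the members with H3K27ac in 3 lines. The 250 bases before the PCDHGC3 start, with the 5 plus-strand copies of the core in capitals, read as follows.
PCDHGC3, chr5:141475716-141475965: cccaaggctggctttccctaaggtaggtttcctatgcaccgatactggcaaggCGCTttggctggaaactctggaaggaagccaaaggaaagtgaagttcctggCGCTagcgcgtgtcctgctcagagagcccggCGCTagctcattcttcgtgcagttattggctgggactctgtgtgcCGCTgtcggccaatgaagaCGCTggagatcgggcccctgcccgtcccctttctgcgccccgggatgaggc

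The core CGCT, searched on both strands, was in the window of 46 of 47 members, all except PCDHA9, but so was it in 24584 of the 35116 promoter windows of the RefSeq table. The letters just before it differed between subclusters in part. GGTGGCGCT was in 13 of 14 beta windows and in no alpha or gamma window (0.501% of all windows, both strands). GATGTCGCT was in 9 of 13 alpha windows and in no beta or gamma window (0.105%). Gamma members varied more: GGCGCCGCT was in 6 of 20 windows (1.08%), AGCGCCGCT in 4 (0.476%) and AGCGTCGCT in 3 (0.145%). Of the 15 gamma members with a CTCF summit in the window, the core nearest to it read GCCGCT in 7 and GTCGCT in 5. The ending GTCGCT was shared between subclusters. By the rule of the printed stretches it was at 11 of 13 alpha, 1 of 14 beta and 6 of 20 gamma members. GGTGTCGCT was in 1 alpha and 1 gamma window. These words were chosen after the sequences were seen, and each contains the core. A core of the usual CTCF motif (2 C, 3 of any base, AG, 2 of any base, GGC, both strands) was in 1 of 47 member windows, that of PCDHB9, and in 10.6% of all windows. No mismatch was allowed, so close variants, such as ccacacGGTGGC in PCDHB10, were not counted.

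CTCF was the most frequent mark at the members. In NCI-H2087, 42 of 53 starts (79.2%) carried a CTCF peak, against 30.5% of all genes. They were 13 of 15 alpha, 14 of 16 beta and 15 of 22 gamma members, and the counts were the same with windows of 500 bp or 2 kb and with −log10 q of at least 10. With the 20000 strongest peaks of the list 20 members were left (5 alpha, 12 beta and 3 gamma), against 8.71% of all genes. The median CTCF fold was 23.6 in alpha, 53.6 in beta and 23.5 in gamma, and 18.3 over all genes of known strand with a peak at the start. Of 53 CTCF summits from 1 kb before the first start to the end of the cluster, 42 lay at a start, 79.2% (exact Clopper-Pearson 95% interval 65.9 to 89.2%, counting error only). The interval treats the summits as independent draws, but they are all the summits of 1 library in 1 locus. It therefore gives no spread between libraries. The share was below the interval with windows of 500 bp, and the share expected from the length of the start windows was not computed.

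Alpha CTCF folds spread widely. PCDHA3 (73.6), PCDHA12 (72.2), PCDHAC1 (71.1) and PCDHA8 (62.4) were highest, followed by PCDHA13 (41.8). The other 8 alpha members with a peak ranged from 5.12 in PCDHA9 to 28.4 in PCDHA10. The 4 high members are spread over the row of alpha promoters, with lower ones between them.

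Beta members were high as a group. PCDHB5 had a CTCF fold of 79.1, PCDHB10 of 77.8, PCDHB12 of 70.4, PCDHB3 of 69.8 and PCDHB16 of 68.8. At the other end PCDHB4 (4.68) and PCDHB14 (8.29) carried the same 9 letters as the high members, so the fold varied widely among promoters with this word. In gamma, PCDHGB5 was highest at 81.0, the highest fold at any member start, followed by PCDHGB1 (51.2), PCDHGA2 (43.1), PCDHGB4 (33.8) and PCDHGB2 (31.3). The last gamma A and B members before the C-type genes were low where a peak was called. Folds were 5.99 at PCDHGA9, 9.40 at PCDHGA10, 5.07 at PCDHGB7 and 6.50 at PCDHGA11. PCDHGB6 and PCDHGA12, also among these last members, had no CTCF peak.

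**Figure D1:**
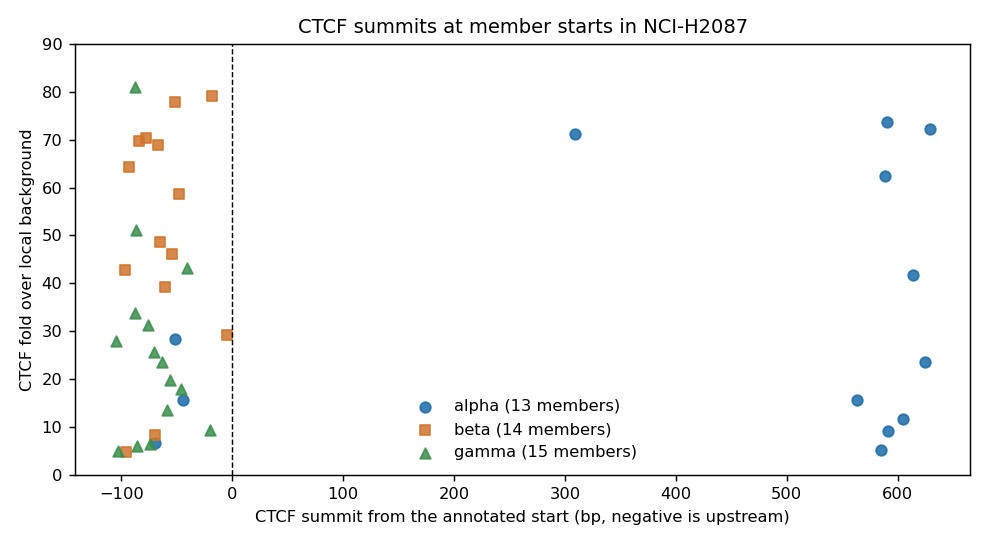
CTCF fold (y axis) against the distance of the CTCF summit from the annotated start in bp (x axis) for the 42 members with a peak in NCI-H2087, 1 point a member, coloured by subcluster. All beta and gamma points lie just upstream of the start, and 9 of 13 alpha points lie 550 to 650 bp downstream. Each peak is drawn at its summit only, and several alpha peaks are wide enough to cover both places.

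The place of the summit differed between subclusters, as the plot of summit distance shows. All 14 beta and all 15 gamma summits lay within 110 bp upstream of the start, at −97 to −5 bp and −105 to −20 bp. In alpha, 3 of 13 summits lay there, at −44 bp in PCDHA1, −70 bp in PCDHA7 and −52 bp in PCDHA10. Another 9 alpha summits lay 550 to 650 bp downstream, and that of PCDHAC1 at +309 bp. The summit is only the highest point of a called peak, and alpha peaks were up to 2220 bp wide (PCDHA12). The peaks of PCDHA2, PCDHA3, PCDHA4, PCDHA7, PCDHA8, PCDHA10 and PCDHA12 covered both of these stretches in full. At these members the summit therefore does not show that the other place was free of CTCF. Of the 4644 genes with known strand and a CTCF peak at the start, 11.1% had a summit within 110 bp upstream and 3.60% at 550 to 650 bp downstream. These bounds were chosen after the summits were seen. In the 30 members with a summit inside the promoter window, the summit lay −49 to +28 bases from the first base of the nearest CGCT (median −10.5), and within 25 bases in 27 of them. The copy was picked as the nearest to the summit, and some windows held several, such as 5 in PCDHGC3. Part of this closeness thus follows from the choice, and no distance expected without binding at the core was computed.

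Reads were 40 bases long, and neighbouring members resemble each other. Within the promoter windows, 4 of 47 members shared a stretch of 40 bases with another member, PCDHB8 with PCDHB13 and PCDHGB4 with PCDHGB5. Reads from such a stretch cannot be placed on 1 member, so the values of these 4 are less certain. The alpha sites downstream of the start lie outside the windows and were not checked this way.

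The 11 members without a CTCF peak were PCDHA6, PCDHAC2, PCDHB1, PCDHB15, PCDHGA5, PCDHGB3, PCDHGA7, PCDHGB6, PCDHGA12, PCDHGC4 and PCDHGC5. They included all 4 members that are known to lack the element. The other 7 carried no peak of any of the 11 NCI-H2087 lists at the start, a state found at 27.1% of all genes. At 20 members, 9 alpha, 3 beta and 8 gamma, CTCF was the only one of the 11 antibodies with a peak. Among all genes 2.50% were in this state.

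CTCF also bound between the subclusters and behind the gamma genes. Of 57 CTCF peaks in the window, 15 were not at a member start, and their median fold was 54.7 against 30.3 at the starts. The window held 6.89 CTCF peaks per 100 kb against 2.02 on chromosome 5. The 3 peaks with a fold above that of any member start lay in DIAPH1, 35.8 kb after the PCDHGC5 start (125), at the end of the gamma genes, 23.4 kb after the same start (105), and at −4.34 kb from the PCDHGA1 start (101). DIAPH1 encodes a formin of the actin skeleton and is the neighbour behind the cluster.

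**Figure D2:**
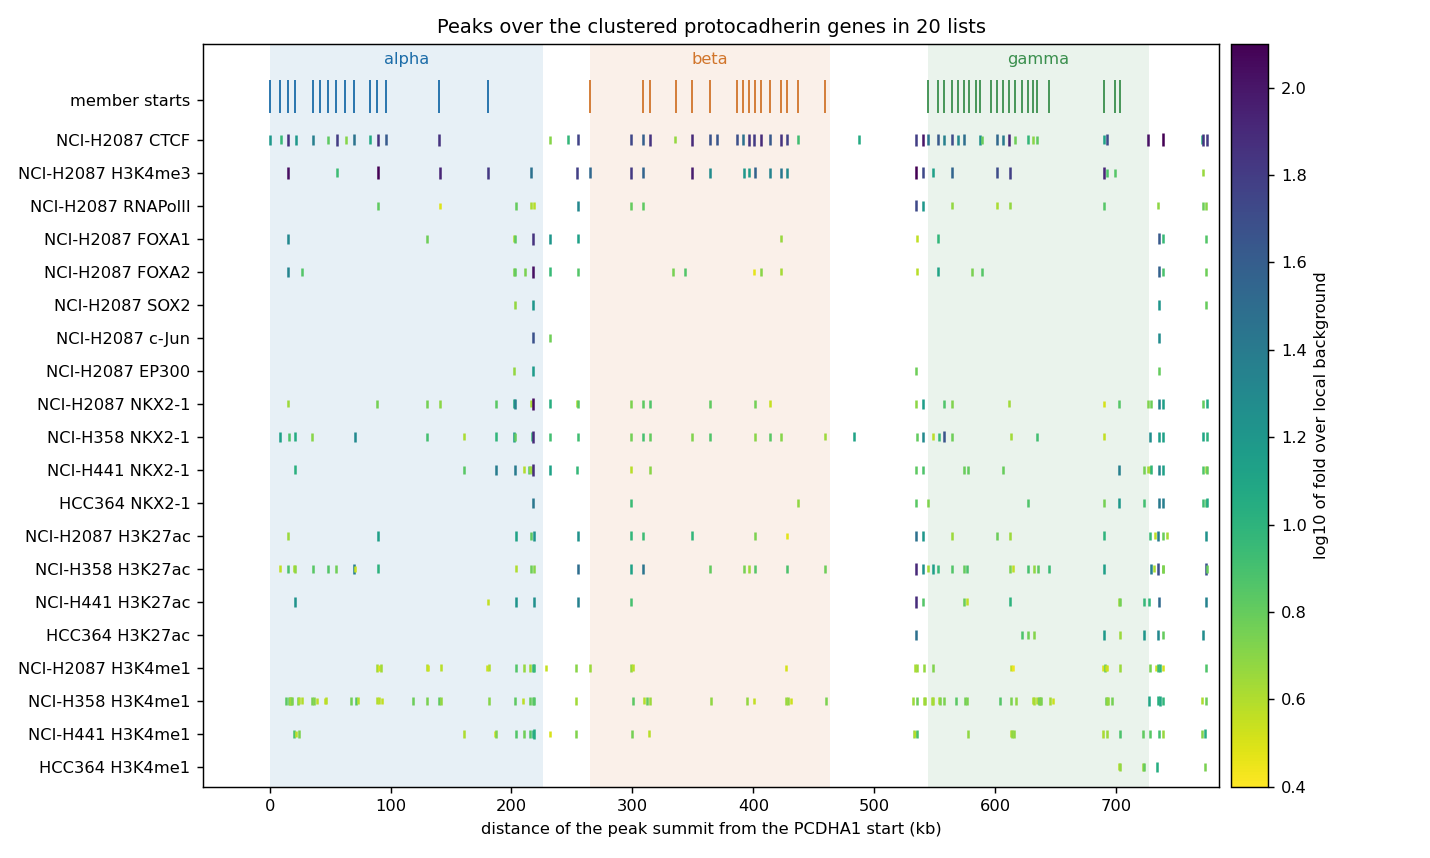
Peaks of the 20 lists over the window, 1 row per list, by the distance of the summit from the PCDHA1 start in kb (x axis), with colour giving log10 of the fold and taller ticks a higher fold; shaded bands are the subclusters and the top ticks are member starts. CTCF ticks follow the member starts, and the HCC364 rows of H3K27ac and H3K4me1 are empty across alpha and beta.

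H3K4me3 marked fewer members than CTCF. It was at 20 of 53 starts in NCI-H2087 (37.7%), against 64.7% of all genes: 5 alpha, 10 beta and 5 gamma members. Its highest folds were 127 at PCDHA12, 109 at PCDHA3, 92.2 at PCDHB5, 83.5 at PCDHAC1, 82.3 at PCDHGC3, 65.5 at PCDHAC2 and 60.9 at PCDHGB5. The next were PCDHGB4 (51.1), PCDHB9 (37.5), PCDHB2 (36.4), PCDHGB1 (36.1) and PCDHB1 (33.9). The median fold was 36.3 at members and 99.6 over all genes of known strand with a peak at the start. The beta row from PCDHB8 to PCDHB13 was marked at all members but PCDHB10, with folds of 14.4 to 37.5.

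RNA polymerase II was found at 7 members (13.2%), against 52.2% of all genes, and all 7 also carried H3K4me3 and CTCF. The folds were low: 7.05 at PCDHGC3, 6.68 at PCDHB2, 6.50 at PCDHA12, 4.76 at PCDHGB1, 4.72 at PCDHGB5, 4.10 at PCDHGB4 and 3.09 at PCDHAC1. The median was 4.76, against 16.3 over all genes of known strand with a peak. H3K4me3 stood without polymerase at 13 of 53 members (13.6% of all genes) and without H3K27ac at 10 of 53 (10.4% of all genes). Of the 20 members with H3K4me3, 13 thus had no polymerase peak and 10 no H3K27ac peak. Of the 12917 genes with H3K4me3, 2714 had no polymerase peak and 2076 no H3K27ac peak. No member had H3K27ac or polymerase without H3K4me3 in this line (backgrounds 1.78% and 1.08%). PCDHA12, PCDHB2, PCDHGB1, PCDHGB4, PCDHGB5 and PCDHGC3 carried H3K4me3, H3K27ac and polymerase together, a combination found at 9988 of all 19974 genes.

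CTCF fold and H3K4me3 went together in alpha. The 4 alpha members with both marks had CTCF folds of 62.4 to 73.6 (median 71.7), and the 9 with CTCF alone of the pair had 5.12 to 41.8 (median 15.6), so the ranges did not overlap. In beta the ranges overlapped, with a median of 58.6 in 9 members with H3K4me3 and 48.7 in 5 without. They overlapped in gamma too, with 42.5 in 4 members and 19.8 in 11. PCDHB10 and PCDHB3 had CTCF folds of 77.8 and 69.8 without an H3K4me3 peak. PCDHAC2, PCDHB1 and PCDHGC4 had H3K4me3 folds of 65.5, 33.9 and 7.08 without a CTCF peak. The alpha separation was not particular to H3K4me3. Alpha CTCF folds were 71.1 to 73.6 in the 3 members with NKX2-1 and 5.12 to 62.4 in the 10 without it. They were 72.2 to 73.6 in the 2 members with H3K27ac and 5.12 to 71.1 in the 11 without it. These groups are not separate sets, since PCDHA3 and PCDHA12 carried H3K4me3, NKX2-1 and H3K27ac. For polymerase and H3K4me1 the alpha ranges overlapped. CTCF folds over all genes with and without H3K4me3 were not computed.

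**Figure D3:**
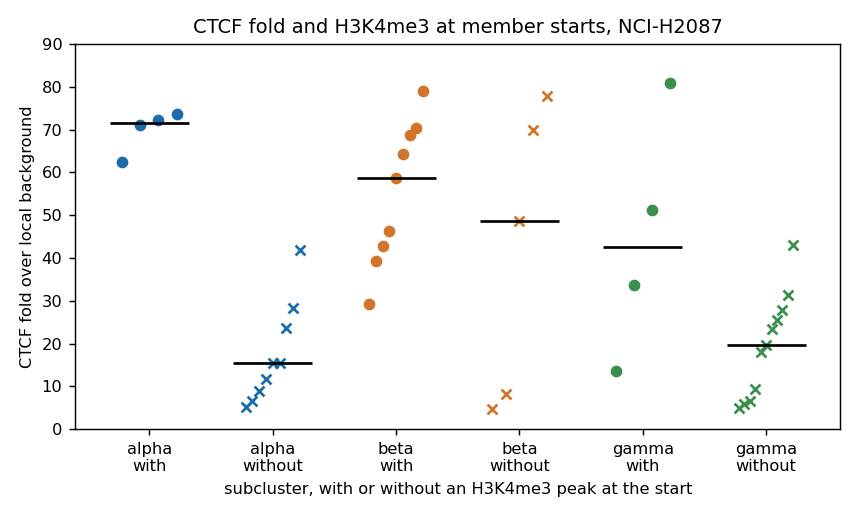
CTCF fold in NCI-H2087 (y axis) at members with a CTCF peak, by subcluster and by presence of an H3K4me3 peak at the start (x axis); points are members and lines are medians. The alpha groups are apart, at 62.4 to 73.6 and 5.12 to 41.8, and the beta and gamma groups overlap.

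H3K27ac at the starts differed between the lines. It was at 10 of 53 members in NCI-H2087 (18.9%, background 56.1%) and at 26 in NCI-H358 (49.1%, background 55.1%). In NCI-H441 it was at 6 (11.3%, background 54.2%) and in HCC364 at 5 (9.43%, background 56.6%). The NCI-H358 share was thus the nearest to that of all genes, and the other lines were further below it. By alpha, beta and gamma the counts were 2, 4 and 4 in NCI-H2087, 8, 7 and 11 in NCI-H358, 2, 0 and 4 in NCI-H441, and 0, 0 and 5 in HCC364. The peaks were mostly weak, with a median fold of 6.98 in NCI-H358 against 21.2 over all genes of known strand with a peak there. With −log10 q of at least 10 the counts were 7, 21, 4 and 3 in line order (between 52.2% and 54.0% of all genes in each line). Among the 20000 strongest peaks per list the counts were 3, 3, 2 and 1 (42.2%, 43.3%, 42.6% and 45.2% of all genes), and NCI-H358 then had as many members as NCI-H2087.

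No member carried H3K27ac in all 4 lines, a state found at 48.0% of all genes. It was present in 1 line at 17 members (5.79% of all genes), in 2 lines at 12 (4.19%), in 3 lines at 2 (5.21%) and in none at 22 (36.8%). NCI-H358 was the sole line at 13 members (1.30% of all genes). NCI-H2087 was the sole line at PCDHB5 and PCDHGB4 (1.35%), NCI-H441 at PCDHAC2 (0.661%) and HCC364 at PCDHGB6 (2.49%). The neighbours TAF7, a subunit of the general transcription factor TFIID between beta and gamma, and DIAPH1 carried H3K27ac at the start in all 4 lines. TAF7 folds were 29.9, 79.8, 78.1 and 30.3 and DIAPH1 folds 37.4, 46.9, 56.2 and 29.2, in line order. SLC25A2, a mitochondrial carrier gene in the same gap, had none.

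Single members show how far the lines differed. PCDHB2 had an H3K27ac fold of 27.4 in NCI-H358 and 8.59 in NCI-H2087 and no peak in the other lines. PCDHA10 had 23.6 in NCI-H358 alone. PCDHA4 had 16.8 in NCI-H441 and 4.80 in NCI-H358. The strongest peaks at these 3 members thus lay in NCI-H358 and NCI-H441. PCDHA12 had 14.1 in NCI-H2087 and 10.2 in NCI-H358, and PCDHB5 had 9.64 in NCI-H2087 alone. PCDHGB5 had 10.1 in NCI-H441, 5.45 in NCI-H358 and 4.43 in NCI-H2087, and lacked a peak in HCC364. PCDHGA2 (9.16) and PCDHGA12 (8.75) were marked in NCI-H358 alone, and PCDHB13 in NCI-H358 (7.62) and NCI-H2087 (3.01). PCDHGA10 had 7.90 in NCI-H358 and 5.89 in HCC364, so HCC364 shared this member with NCI-H358. PCDHGA5 had 7.62 in NCI-H358 and 3.65 in NCI-H441, but the summits of both peaks lay more than 1 kb upstream, at −1056 and −1108 bp.

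The C-type gamma members were marked in other sets of lines. PCDHGC3 had an H3K27ac fold of 15.3 in HCC364, 14 in NCI-H358 and 9.85 in NCI-H2087, and no peak in NCI-H441. PCDHGC5 had 5.82 in NCI-H441 and 4.56 in HCC364 and none in NCI-H2087 or NCI-H358. PCDHGC4, between them, had none in any line. PCDHGC3 and PCDHGC5 were the only members marked by H3K4me1 in 3 lines, with folds of 6.40, 6.31 and 4.19 at PCDHGC3 (NCI-H2087, NCI-H358, NCI-H441) and 4.50, 7.61 and 4.72 at PCDHGC5 (NCI-H2087, NCI-H441, HCC364). Of the C-type alpha members, PCDHAC1 had no H3K27ac in any line, and PCDHAC2 had 3.61 in NCI-H441.

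**Figure D4:**
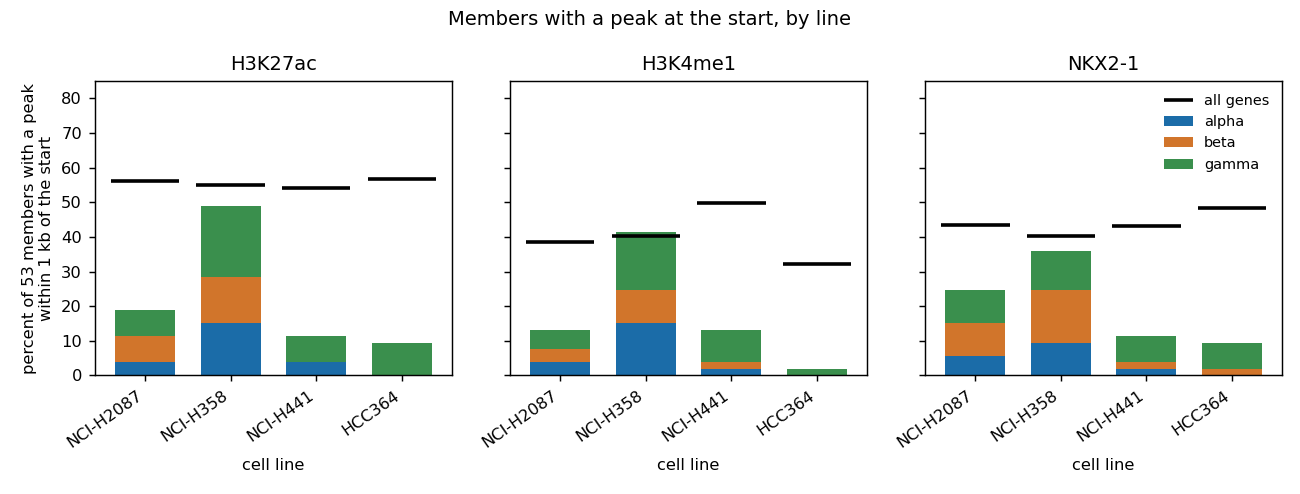
Percent of the 53 members with a peak within 1 kb of the start (y axis) for H3K27ac, H3K4me1 and NKX2-1 in the 4 lines (x axis), stacked by subcluster; black lines are the same share over all 19974 genes. The NCI-H358 bars are the highest in all 3 panels, and HCC364 has no alpha member in any.

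H3K4me1 was at 7 members in NCI-H2087 (background 38.5%), 22 in NCI-H358 (40.2%), 7 in NCI-H441 (49.7%) and 1, PCDHGC5, in HCC364 (32.1%). The NCI-H358 share of members, 41.5%, was near that of all genes. The count there was 13 with windows of 500 bp (19.1% of all genes) and 6 with −log10 q of at least 10 (24.1%). No member was marked in all 4 lines, against 17.2% of all genes, and 28 were marked in none (37.6%). The members marked in NCI-H358 only numbered 14 (3.06% of all genes), and all of their folds lay between 3.58 and 7.1, near the list median of 5.58. PCDHB1 was marked in NCI-H2087 only (1.98%), and no member in NCI-H441 only (6.86%) or HCC364 only (2.93%).

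HCC364 had no H3K27ac and no H3K4me1 peak in the alpha or beta subcluster, starts or elsewhere. The longest stretch without an H3K27ac peak there was 601 kb, from before the cluster to TAF7. Of the 56361 gaps of this list 1.26% were at least as long. The stretch without H3K4me1 was 776 kb, and 0.164% of 121766 gaps were at least as long. Both shares are by number of gaps. The part of the genome inside such long gaps is larger than these shares and was not computed. Over the whole window the H3K27ac lists held 23, 44, 17 and 10 peaks and the H3K4me1 lists 36, 74, 31 and 6 in line order.

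The local background beside these peaks moved with the line. Solved from fold and p, its median within 1 Mb was 1.28 to 1.59 times the library's median in the 11 NCI-H2087 libraries, 0.82 to 0.86 in NCI-H358, 1.02 to 1.06 in NCI-H441 and 0.78 to 0.84 in HCC364. In HCC364 the lowest background of any peak was 2.54 for NKX2-1, 2.73 for H3K27ac and 2.82 for H3K4me1, with medians of 3.24, 3.38 and 3.37. Its ratios of 0.78, 0.81 and 0.84 lay at this lower limit, and a still lower level could not be seen. These values therefore cannot tell whether HCC364, with the fewest peaks, was like NCI-H358, with the most. The part of depth or copy number in the counts by line was not tested.

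NKX2-1 was at 13, 19, 6 and 5 members in line order (24.5%, 35.8%, 11.3% and 9.43%), against 43.4%, 40.3%, 43.0% and 48.2% of all genes. No member was bound in all 4 lines (29.8% of all genes), and 25 were bound in none (42.5%). PCDHB3, PCDHGC3 and PCDHGC5 were bound in 3 lines (9.73%), 9 members in 2 lines (8.46%) and 16 in 1 line (9.48%). The sole line was NCI-H358 at 8 members (1.60%), NCI-H2087 at PCDHA12 and PCDHAC1 (1.78%), NCI-H441 at PCDHGB2, PCDHGA5 and PCDHGA8 (1.74%), and HCC364 at PCDHB14, PCDHGA1 and PCDHGA10 (4.37%). With the 20000 strongest peaks 0, 3, 1 and 0 members were left, and the share of all genes fell as well, to 8.51%, 9.59%, 6.83% and 10.6%.

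The highest NKX2-1 fold at a start was 45.4, at PCDHGA3 in NCI-H358, where the member had no H3K27ac peak. PCDHA10 had 19.9 and PCDHA2 13.9 in the same line, both with H3K27ac. PCDHGC5 had 23.6 in NCI-H441 and 15.5 in HCC364, with H3K27ac in both. PCDHA4 (10.5) and PCDHGA5 (6.42) followed in NCI-H441, and PCDHGA10 (7.35) and PCDHGC3 (5.66) in HCC364. In NCI-H2087 the highest were PCDHGA3 (7.41), PCDHB3 (7.40) and PCDHGC5 (7.05), none with H3K27ac. In line order, bound members without H3K27ac numbered 6, 5, 2 and 2 (3.10%, 3.13%, 3.53% and 3.92% of all genes), and bound members with H3K27ac 7, 14, 4 and 3 (40.3%, 37.2%, 39.5% and 44.3% of all genes).

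Few starts carried a partner factor in NCI-H2087. FOXA1 was at 3 members (background 18.6%), PCDHA3 (20.4), PCDHGA2 (9.52) and PCDHB12 (4.63). FOXA2 was at 6 (19.7%), with 21.4 at PCDHA3 and 13.0 at PCDHGA2, and below these 7.0 at PCDHGA6, 5.04 at PCDHB10, 4.26 at PCDHB12 and 2.97 at PCDHB9. EP300 was at none (12.9% of all genes). SOX2 and c-Jun were at none either, but they were at 0.856% and 4.76% of all genes, so few members would carry them at the background share. PCDHA3 thus carried CTCF, H3K4me3, H3K27ac (4.56), NKX2-1 (4.47) and both forkhead factors.

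**Figure D5:**
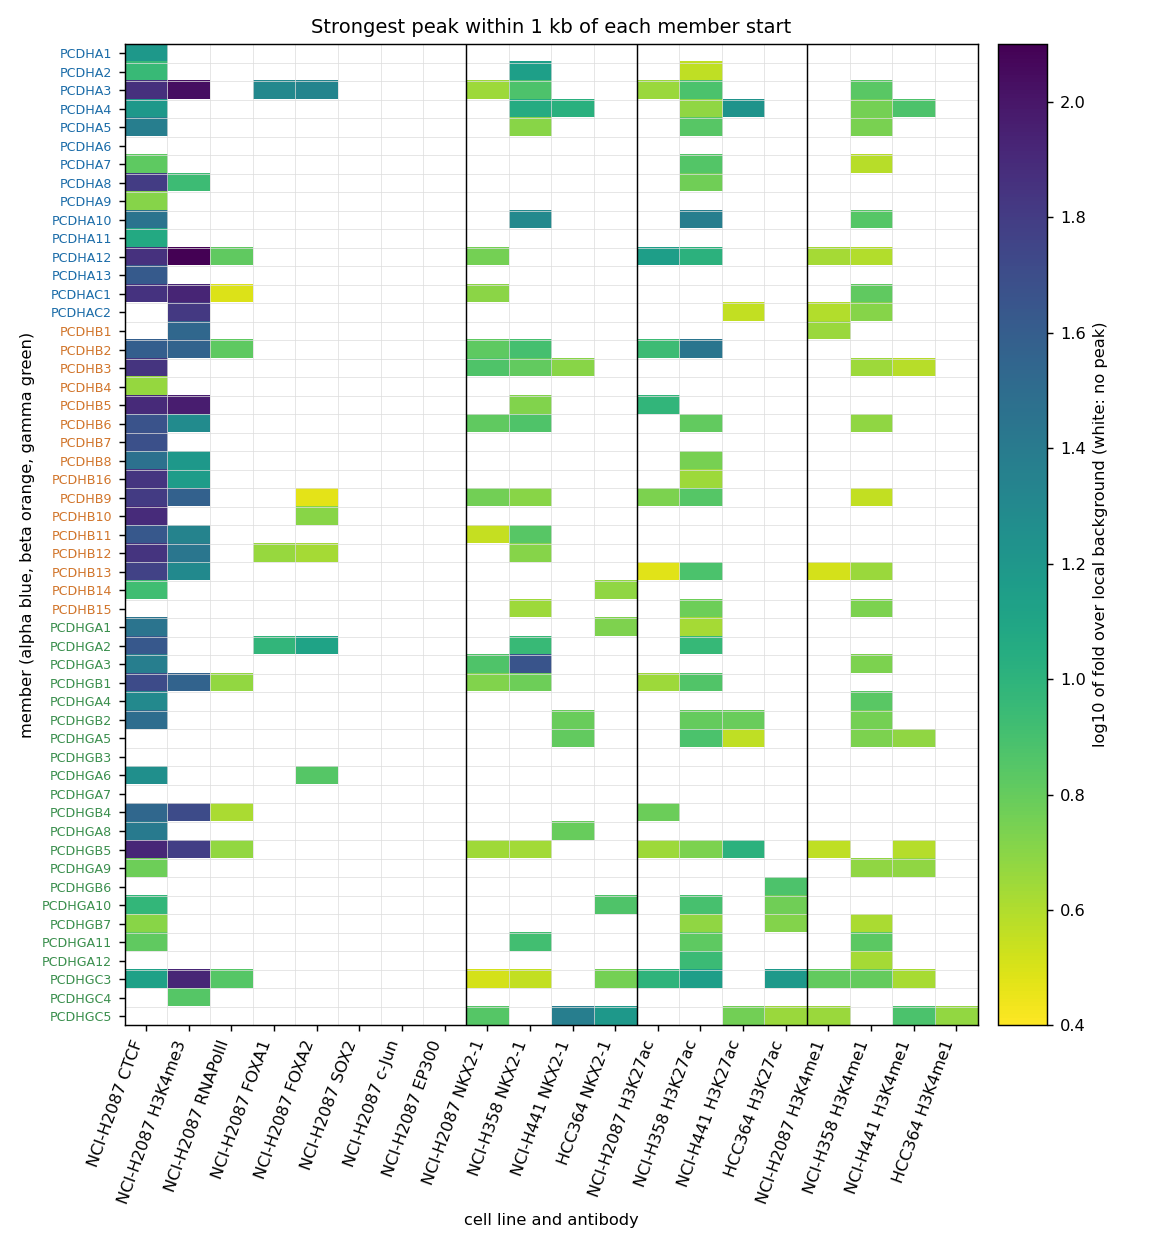
Log10 of the fold of the strongest peak within 1 kb of the start for each of the 53 members (rows, in genomic order) in the 20 lists (columns); white cells have no peak. The CTCF column is filled at 42 members, the SOX2, c-Jun and EP300 columns are empty, and the HCC364 columns are empty in alpha.

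The strongest NKX2-1 site of the window was not at a start. It lay at chr5:141002909-141004872 in the 3′ part of the alpha subcluster, with the NCI-H2087 summit 37.7 kb after the PCDHAC2 start and 8.15 kb before the end of the alpha genes. It was singled out as the merged NKX2-1 region with the highest fold. NKX2-1 folds there were 109, 77.1, 75.8 and 26.6 in line order. By −log10 p these peaks ranked 19 of 75657, 58 of 75747, 53 of 90578 and 10846 of 87160. The site was thus among the first 58 peaks of the list in 3 lines and not in HCC364.

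In NCI-H2087 all 6 transcription factors and cofactors other than CTCF had a peak at this site, with summits within 90 bp of each other. FOXA2 had a fold of 108 (rank 369), FOXA1 71.3 (732), c-Jun 47.4 (45), SOX2 16.1 (216) and EP300 14.9 (47). H3K27ac (16.6), H3K4me1 (10.0) and RNA polymerase II (3.81) were present too, and CTCF and H3K4me3 were not. H3K27ac at the site was 18.0 in NCI-H441 and 5.14 in NCI-H358, and H3K4me1 was 11.5 and 7.11. HCC364 had neither mark there, so of the 3 antibodies NKX2-1 alone was found at the site in that line.

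Few regions of the window were present in every line. After merging the lists of the 4 lines, 7 of 53 NKX2-1 regions (13.2%) were present in all lines, against 22.3% genome-wide. For H3K27ac it was 3 of 50 (6.0% against 23.9%) and for H3K4me1 2 of 89 (2.25% against 21.2%). The 3 shared H3K27ac regions lay at TAF7 and in DIAPH1, and both shared H3K4me1 regions lay in the right flank. Of the 7 shared NKX2-1 regions, the site in alpha and 1 region centred at −9542 bp from the PCDHB2 start were in a subcluster, 1 was at TAF7 and 4 were in the right flank.

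Gene lists set the cluster beside other loci. Of 18 genes for CTCF, cohesin and repressors of the cluster (such as RAD21, SMCHD1 and SETDB1), 16 carried H3K27ac at the start in each line. Of 12 protocadherins outside the cluster, 2, 5, 3 and 2 did in line order, and in NCI-H2087 these were PCDH1 and PCDH7. Of 9 epithelial and lung adenocarcinoma markers, 9, 8, 9 and 9 carried the mark in line order, which cannot tell 1 line's label from another. Of the other markers 3, 2, 3 and 3 of 6 neuronal, 1 of 4 fibroblast in each line and 1, 1, 1 and 0 of 3 blood genes did, beside 54.2% to 56.6% of all genes.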

How the data were processed

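ChIP-seq peak lists of 20 libraries were used, 1 per combination of line and antibody. The groups were taken from the sample titles. The submitters' processing notes name hg38 (GRCh38) as the build. As tools they name MACS2 in versions 2.1.1 and 2.2.7.1, Bowtie2 2.2.9, bedtools, SAMtools 1.9 and Trimmomatic 0.36, without a role. The deposited narrowPeak files hold a fold, which is a linear ratio of the summit over the local background. They also hold the −log10 p and −log10 q of each peak, as the authors' peak caller wrote them. Read totals per library are not given in the sources used here, so the depth is unknown.

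Python 3.11.15 with numpy 2.4.6, pandas 2.3.3 and scipy 1.17.1 was used here. A peak was given to a gene when it overlapped the start ± 1 kb by 1 bp, and the strongest by fold was kept. Strand came from the RefSeq promoter table (15819 genes). For the 4155 genes without one, either annotated end counted, and using known strands only moved a background share by at most 2.35 percentage points. The local background was solved from the fold and the p of each peak, within 0.01 of the written −log10 p. The overlap step was tested on simulated data. Other windows, stronger peaks, summits in place of peaks and other flanks were tried as alternatives. Named were the C-type members, the 5 with the highest CTCF fold per subcluster, up to 12 with H3K27ac in 1 to 3 lines, up to 12 with H3K4me3 or polymerase, 3 per line by NKX2-1 fold, and the neighbours. Members, lists and rules were chosen with earlier results of these data known.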

Additional observations from a re-analysis of the deposited data

How the results depend on the processing

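Of 203 recomputed values of 45 counts and shares, 149 stayed within 1.5 times the reported value, or, for the share of summits, inside its interval. H3K4me3 and RNA polymerase II counts at the starts, and all CTCF counts other than with the 20000 strongest peaks, were among them. Part of this follows from list length. The H3K4me3 and polymerase lists held only 22512 and 26019 peaks, so most stayed among the 20000 strongest. SOX2 (9262) and EP300 (7406) lost none, whereas H3K4me1 in HCC364 had 121789. Counts of 0 that stayed 0 also entered as unchanged.

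With the 20000 strongest peaks, members at the start numbered 20 for CTCF (alpha 5, gamma 3). In the 4 lines (HCC364 last, after NCI-H2087, NCI-H358 and NCI-H441) they numbered 3, 3, 2 and 1 for H3K27ac, 0 in each for H3K4me1, and 0, 3, 1 and 0 for NKX2-1. FOXA1 and FOXA2 were left at 1 member each, and 6 members had H3K27ac in 1 line only. Peaks in the window numbered 30 for CTCF, 5 for FOXA1 and 3 for FOXA2. In the same order of lines they numbered 11, 11, 8 and 5 for H3K27ac, 6, 5, 4 and 1 for H3K4me1, and 7, 11, 6 and 3 for NKX2-1.

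With −log10 q of at least 10, H3K4me1 was at 2, 6, 3 and 0 members, and in HCC364 NKX2-1 was at 2 and H3K27ac at 3. H3K4me1 peaks in the window then numbered 14, 24, 19 and 3. In NCI-H358, H3K4me1 was at 13 members with windows of 500 bp and at 14 with summits inside the window. The share of CTCF summits at a start was 62.3% with windows of 500 bp, since alpha summits lie beyond them. Without flanks SOX2 had 2 peaks and HCC364 NKX2-1 had 9. With flanks of 100 kb FOXA1 had 21 peaks, c-Jun 7, NCI-H441 H3K27ac 26, and HCC364 22 for NKX2-1, 21 for H3K27ac and 22 for H3K4me1. Where a filter on strength lowered a count, fewer peaks entered by construction, and the shares of all genes fell too.

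Leaving out a replicate could not be run, since each group is 1 library. No paired analysis was possible because there is 1 library per antibody in a line and only the NCI-H2087 inputs, which were not analysed here, carry replicate numbers in the labels. Counts rest on called peaks, so weak binding below the threshold is not seen.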

Other observations

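The cluster also holds 6 protocadherin pseudogenes, which are not among the 53 members. PCDHB17P, which lies between PCDHB6 and PCDHB7, had a CTCF fold of 44.5 in NCI-H2087 with the summit at −31 bp from its start, the place where the beta members have theirs. It had no H3K4me3, H3K27ac or RNA polymerase II peak. PCDHA14, PCDHB18P, PCDHB19P, PCDHGB8P and PCDHGB9P had no CTCF peak, and the sole other peak within 1 kb of a pseudogene start was H3K4me1 at PCDHA14 in NCI-H358 (3.90).

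Of the 53 members, 12 carried none of the 12 NKX2-1, H3K27ac and H3K4me1 lists at the start in any line, a state found at 28.2% of all genes. They were PCDHA1, PCDHA6, PCDHA9, PCDHA11, PCDHA13, PCDHB4, PCDHB7, PCDHB10, PCDHGB3, PCDHGA6, PCDHGA7 and PCDHGC4. In NCI-H2087, PCDHB10 and PCDHB7 had the highest CTCF folds among them, 77.8 and 48.7.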
